A study of Homo sapiens with 6 samples.

Results

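The regions described are the H3K9me3 peaks whose midpoint lay within 5 Mb of the end of a chromosome, on chromosomes 1 to 22 and X of the human assembly hg19. They numbered 137 of the 2826 peaks in the 3 deposited lists. Membership rested on position alone, though the rule was chosen with earlier results of these data known. PC-3 is an established cell line of a prostate adenocarcinoma that had spread to bone. All cells were starved of serum for 24 h. The control was then left untreated, and the others were given the cytokine TGF-β1 (5 ng/mL) over either 6 h or 24 h. Each condition has 1 ChIP library and no replicate, so the lists are described side by side without a test, and a difference between them cannot be told apart from a difference between libraries.

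H3K9me3, trimethylation of lysine 9 of histone H3, marks constitutive heterochromatin. It is written by SUV39H1, SUV39H2 and SETDB1 and is read by HP1 proteins, which compact the marked chromatin. Telomeres, the repeat tracts that cap chromosomes, carry the mark, and the subtelomere just inside them is a patchwork of segmental duplications, macrosatellites and, further in, ordinary genes. Many genes near chromosome ends encode KRAB zinc-finger proteins, a class of repressors that recruit SETDB1 through TRIM28 and whose own genes are known to carry H3K9me3. The ends of 4q and 10q also hold the near-identical D4Z4 macrosatellite arrays, whose H3K9me3 is known to be reduced in facioscapulohumeral dystrophy.

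Peaks near chromosome ends were most numerous in the control list, where they were densest in the outermost 1 Mb. The control list had 87 of them among its 1334 peaks (6.52%, exact 95% binomial interval 5.26 to 7.98). The 6 h list had 40 among 1220 (3.28%, 2.35 to 4.44) and the 24 h list 10 among 272 (3.68%, 1.78 to 6.66). With each list cut to its 272 peaks of highest −log10 q, the shares were 1.84%, 2.94% and 3.68%, and the control was the lowest. Intervals here and below express counting error alone, while peaks that lie close together may depend on each other. The rule gives 46 windows. The 5 on the short arms of chromosomes 13, 14, 15, 21 and 22 hold no assembled sequence, which leaves 41 windows and 205 Mb.

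Peaks beside centromeres fill much of the control and 24 h lists and lower every other share in them, so the ends were also set against the rest of the arms. That comparison set held the peaks on the same chromosomes more than 2 Mb from a centromere or heterochromatin gap and outside the windows, over 2566 Mb. Windows made up 7.40% of the 2 stretches together. In the control, 10.6% of the peaks in them lay at the ends (8.59 to 12.9), at 6 h 3.47% (2.49 to 4.70) and at 24 h 8.55% (4.17 to 15.2). Per 10 Mb this was 4.24 peaks at the ends against 2.86 in the rest of the arms in the control. At 6 h the order was the opposite, with 1.95 against 4.33. At 24 h the values were 0.488 and 0.417, a gap within counting error. When the lists were cut to equal size as before, 9.62% of the 52 control peaks in the 2 stretches lay at the ends. The share was 3.38% of 237 peaks at 6 h and 8.55% of 117 at 24 h. The control was thus highest in this comparison, though the intervals overlapped.

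**Figure D1:**
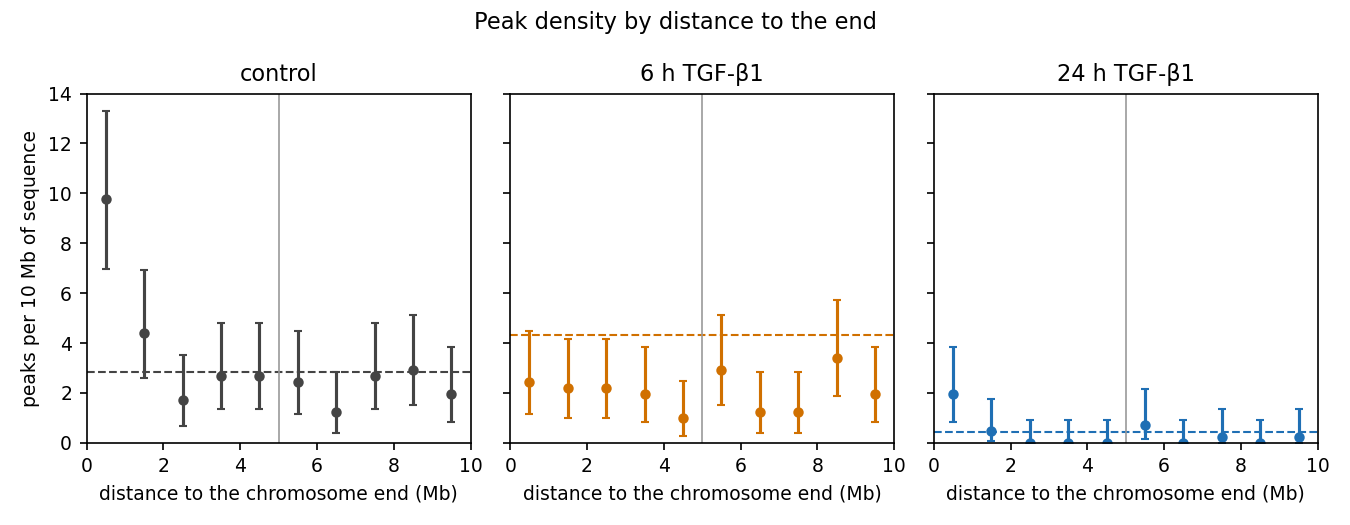
Peaks per 10 Mb of sequence (vertical axis) in steps of 1 Mb from the chromosome end (horizontal axis), for each list. Points are counts over 41 ends with exact 95% Poisson intervals, the dashed line is the density in the rest of the arms, and the grey line is the 5 Mb border. In the control the outermost step stands at 9.76, above its dashed line at 2.86, and at 6 h every step lies below the dashed line at 4.33.

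The lists also differed in how far their peaks lay from the end, though some of the intervals overlapped. In the control, 40 of the 87 peaks lay in the outermost 1 Mb (45.98%, 35.2 to 57.0), at 21 different ends, where an even spread over 5 Mb would give 20%. The density there was 9.76 per 10 Mb (exact Poisson interval 6.97 to 13.3). It was 4.39 in the next step and 1.71 in the third. From there to 10 Mb it stayed between 1.22 and 2.93. The control excess was thus a feature of the outermost sequence and not of the whole 5 Mb window.

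At 6 h no such rise was seen. The outermost 1 Mb held 10 of 40 peaks (25%, 12.7 to 41.2), and the density in it was 2.44 per 10 Mb (1.17 to 4.49). Each step out to 10 Mb stood between 0.976 and 3.41, below the 4.33 of the rest of the arms. The 24 h list had 8 of its 10 peaks in the outermost 1 Mb (80%, 44.4 to 97.5), the other 2 in the next step and 0 from 2 to 5 Mb. The median distance to the end was 1.31 Mb in the control (0.560 to 1.78), 2.09 Mb at 6 h (1.51 to 2.66) and 0.280 Mb at 24 h (0.109 to 1.49).

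Part of the control rise came from a few stretches where peaks stood close together. Chains of at least 4 peaks from any list, with gaps of at most 100 kb, held 23 control peaks, 5 at 6 h and 5 at 24 h. With chains left out, 22 of the 64 remaining control peaks lay in the outermost 1 Mb (34.4%, 22.9 to 47.3). At 6 h that share was 22.9% (10.4 to 40.1). The intervals of these lists overlapped both with the chains and without them. Of the 26 control peaks near ends with a −log10 q of 5 or more, 69.2% lay in the outermost 1 Mb.

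The peak nearest to the border of the windows on the inside was at 4.982 Mb from the end of 20p in the control (fold 4.50), 4.626 Mb on 8q at 6 h (3.76) and 1.495 Mb on Xq at 24 h (6.88). On the outside it was at 5.104 Mb on 2q (fold 3.76), 5.03 Mb on Xq (4.77) and 5.222 Mb on 11p (8.19).

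Most of the peaks near ends were weak. The fold enrichment is the authors' value, in which the ChIP pileup at the summit is divided by the caller's local background after 1 is added to each. Within the control list its median was 4.16 near ends (3.93 to 4.28) and 4.01 in the rest of the arms (3.93 to 4.10). Within the 6 h list the medians were 4.12 and 4.11, and within the 24 h list 3.52 and 3.73. In each list the 2 intervals overlapped. The highest folds of the arms, 35.7 in the control and 25.3 at 6 h, lay away from the ends, where the highest near an end were 6.58 and 12.4.

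Statistical support was read from the authors' −log10 q. Of the control peaks near ends, 26 of 87 had a −log10 q of at least 5 (29.9%, 20.5 to 40.6), against 41.3% of all control peaks. In the rest of the control arms the share was 17.9% (15.2 to 20.8). At 6 h it was 5 of 40 near ends (12.5%, 4.19 to 26.8), against 8.85% of all 6 h peaks and 6.56% in the rest of the arms. At 24 h it was 6 of 10 (60%, 26.2 to 87.8), against 60.3% of all 24 h peaks and 20.6% in the rest of the arms. The shares near ends were thus close to those of the whole list at 6 h and 24 h and lower in the control. Set against the rest of the arms, which leaves out the peaks beside centromeres, the share near ends was the higher in each list. The intervals of that comparison overlapped in each list. Of the 26 control peaks above that level, 18 lay in the outermost 1 Mb.

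**Figure D2:**
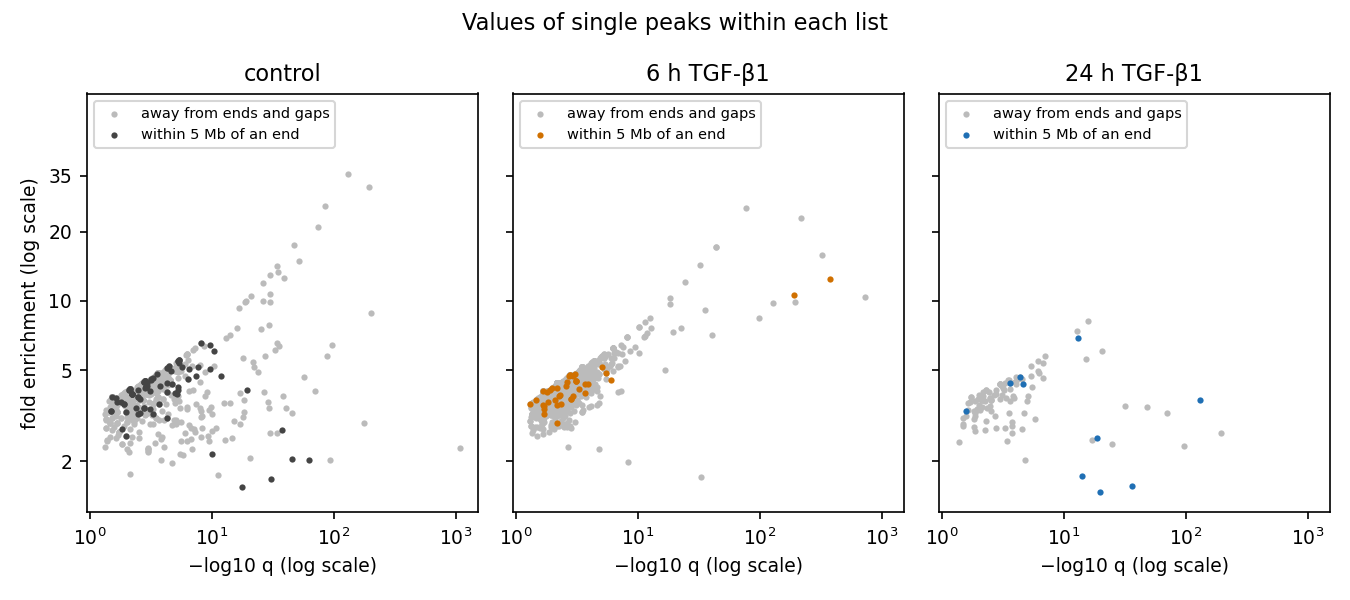
Fold enrichment against −log10 q of single peaks, both on log scales, in each list. Coloured points are peaks within 5 Mb of an end and grey points those in the rest of the arms. Most coloured points sit among the grey ones at low −log10 q, and the 2 with the highest fold at 6 h (12.4 and 10.6) stand far to the right.

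Behind each fold stand a summit pileup and a local background, which were solved from the fold and −log10 p of each peak. Whether this background was read from the input library or from the ChIP library is not stated, so a high value may be input signal. Over 124 of the 137 peaks the local background was less than 10 times the lowest of its list, which is taken as the genome-wide level. These 124 rested on 10 to 74 fragments at the summit, with a median of 15. Their folds ran from 2.57 to 6.88. The other 13 peaks had 126 to 1060 fragments and a local background of at least 10 times the genome-wide level, and all 13 lay at only 4 ends, namely 1p, 10q, 16p and 18p. Each of the 13 had a −log10 q of at least 5, against 24 of the 124. Since both quantities were solved from the −log10 p of the same peak, they are not independent of its −log10 q. A local background of at least 10 times was seen in 6.90% of control peaks near ends and 6.68% in the rest of the arms. At 6 h the shares were 5% and 0.809%, and at 24 h 50% and 7.48%. Near ends these are 6 of 87 control peaks at 10q, 16p and 18p, and 2 of 40 at 6 h, both at 16p. At 24 h they are 5 of 10, at 16p, 18p and 1p. Peaks that lie close together were counted singly, so the shares near ends describe a few places and not the ends in general.

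**Figure D3:**
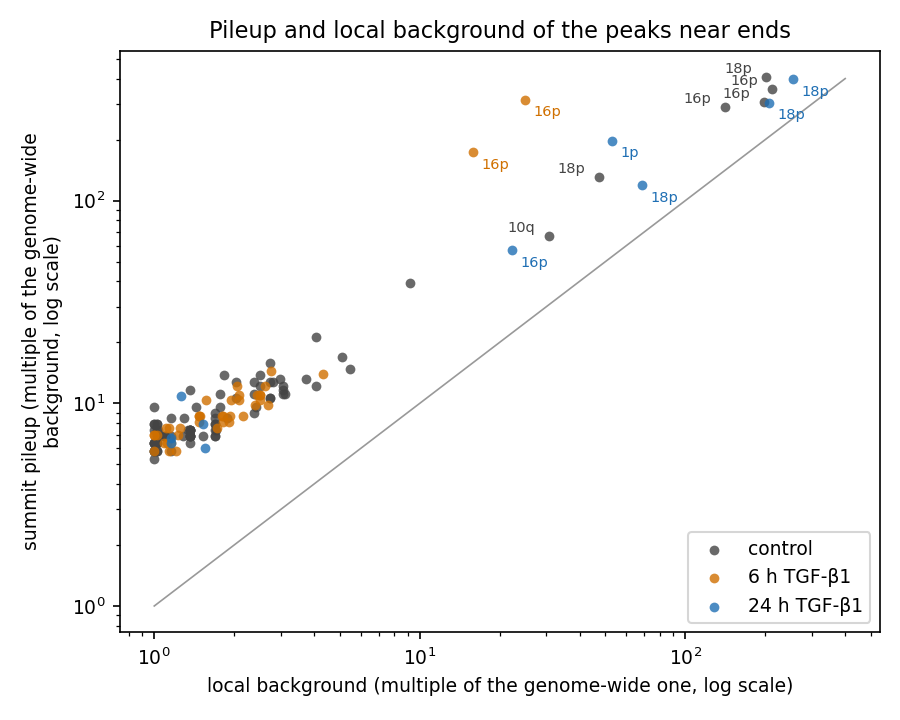
Summit pileup against local background of the 137 peaks near ends, each as a multiple of the genome-wide background of its list, on log scales. The grey line marks equal values, and peaks with a local background of at least 10 times the genome-wide one carry the name of their end. The labelled points are those at 1p, 10q, 16p and 18p, and the 2 of 16p at 6 h lie farthest above the line.

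The overlap between lists was small near ends. Of the 87 control peaks, 4 overlapped a 6 h peak (4.60%, 1.27 to 11.4), against 5.02% of all control peaks. With the 24 h list, 3 did (3.45%, 0.717 to 9.75), against 9.82%. Of the 40 peaks at 6 h, 3 overlapped a control peak (7.50%, 1.57 to 20.4), against 5.25%, and 1 overlapped a 24 h peak (2.50%), against 3.77%. Of the 10 peaks at 24 h, 4 overlapped a control peak (40%, 12.2 to 73.8), against 51.5%, and 1 overlapped a 6 h peak (10%), against 17.3%. In the rest of the arms, the share of 24 h peaks with a control peak was 10.3% (5.24 to 17.7). None of these shares near ends stood apart from the share of all peaks by more than its interval, other than the control peaks found at 24 h, where 9.82% lies just above the upper bound of 9.75%. That 9.82% includes the peaks beside centromeres, and in the rest of the arms the share of control peaks with a 24 h peak was 1.501% (0.751 to 2.67), below the 3.45% near ends but with an overlapping interval.

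Merged over the lists, the peaks near ends gave 128 regions. The control alone held 80, the 6 h list alone 37 and the 24 h list alone 5. The remaining 6 regions were held by more than 1 list, and they lay at 16p (2 regions), 18p (2), 20p and Xq. Merged regions were not counted outside the ends. In the rest of the arms overlap was also rare, at 3.82% of control peaks with a 6 h peak and 2.34% of 6 h peaks with a control peak. Low sharing was thus not particular to the ends. Several control and 6 h peaks lay near each other without touching. On 5q they were 6.475 kb apart close to the end and 7.892 kb apart farther in, on 8q 12.54 kb and on 1q 12.8 kb. Within 100 kb, 27.5% of the 6 h peaks near ends had a control peak (14.6 to 43.9), against 18.3% in the rest of the arms (16.1 to 20.7) and 21.3% of all 6 h peaks. In the other direction the order was the opposite. A 6 h peak lay within 100 kb of 16.1% of the control peaks near ends (9.09 to 25.5), of 26.7% in the rest of the arms (23.6 to 30.1) and of 27.6% of all control peaks. Each order is that of the density of the list searched for a neighbour. Per 10 Mb, the control had 4.24 peaks at the ends and 2.86 in the rest of the arms, and the 6 h list 1.95 and 4.33. Closeness beyond these densities was not tested.

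The end of 16p held the strongest peaks at 6 h. The α-globin genes, which encode a chain of haemoglobin, lie near the tip of this arm, but no peak was assigned to a gene, since the gene table at hand is on another assembly. The first shared region ran from 222907 to 223705. It held a 6 h peak from 223147 to 223705 with a fold of 12.4 and a −log10 q of 378. In the control it held a peak from 222907 to 223277 (fold 1.68, −log10 q 30.5) and one from 223469 to 223654 (fold 2.04, −log10 q 45.2), and the 24 h list had none there. These 2 control peaks had the fourth and the second highest −log10 q of the control peaks near ends and were among those with the lowest folds.

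The second region of 16p, from 226711 to 227519, was the only one near an end found in all lists. The control peak ended at 227067 (fold 1.54, −log10 q 17.5). The 6 h peak ran from 227049 to 227519 (fold 10.6, −log10 q 189) and the 24 h peak from 227289 to 227509 (fold 2.54, −log10 q 18.5). The control and 6 h peaks shared 19 bp, and the control and 24 h peaks did not touch, with 222 bp between them. The 6 h and 24 h peaks ended 10 bp apart and had summits 7 bp apart. The 2 regions of 16p were alike in length, at 799 and 809 bp. Whether they are copies of 1 sequence, so that reads of one could be placed at the other, was not tested. They may therefore not be separate signals.

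At both 16p regions the higher fold at 6 h went with a lower local background. The 3 control peaks had summit pileups of 357, 289 and 306 times the genome-wide background, and the 2 peaks at 6 h had 315 and 173 times. At 24 h the pileup was 57.1 times. The control peaks had local backgrounds of 211, 141 and 198 times that level, those at 6 h 24.8 and 15.8 times and that at 24 h 22.3 times. In the first region the pileups of the control and 6 h peaks were alike in size, and in the second that of the 6 h peak was the lower. The local backgrounds of the control and 6 h peaks lay far apart in both. The 24 h peak had a background close to those at 6 h, a lower pileup and a fold of 2.54. These folds come from separate lists and were not compared as a change of the mark. The further control peaks of this end, from 3202127 to 3202374 and from 3507693 to 3507886, had folds of 4.56 and 3.93.

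The end of 18p held the most peaks, with 20 over the lists, and they fell into 2 sets. The first was a stretch of 3.036 kb about 108 to 111 kb from the end. The control list had 2 peaks in it and the 24 h list 3, and the 6 h list none. The control peak from 107890 to 109435 was the widest near an end (1546 bp), with a fold of 2.02 and the highest −log10 q of the control peaks near ends, 62.8. It overlapped 2 peaks of the 24 h list, from 108012 to 108504 (fold 1.57, −log10 q 36.4) and from 108858 to 109345 (fold 1.47, −log10 q 19.6). A second control peak, from 110228 to 110925 (fold 2.75, −log10 q 37.6), overlapped a 24 h peak from 110309 to 110724 (fold 1.73, −log10 q 14.1).

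Both lists with peaks in this stretch had a high local background there. In the control it stood at 201 and 47.3 times the genome-wide level, and at 24 h at 254, 207 and 68.9 times. Pileups were 406 and 131 times in the control and 398, 305 and 119 times at 24 h. All folds in the stretch were under 3, the lowest of the 24 h peaks near ends among them. Whether a 6 h signal of the same kind fell under the threshold of the caller was not tested.

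The second set on 18p lay deeper and belonged mainly to the 6 h list. It had 12 peaks there, from 1.82 to 4.15 Mb, which was 30% of the 6 h peaks near ends (16.6 to 46.5). The control had 3 peaks beyond the outermost 1 Mb, from 1.75 to 2.55 Mb, and the 24 h list had 0. None of the 12 overlapped a peak of another list. Of all 6 h peaks, only 5.25% overlapped a control peak and 3.77% a 24 h peak, so this does not set the 12 apart. They were spread out, with a median spacing of 157 kb and a range from 1.70 to 548 kb.

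These 12 peaks were weak by every value. Their folds ran from 2.95 to 4.70 (median 3.96) and their −log10 q from 1.67 to 5.99 (median 2.26). The one above a −log10 q of 5 ran from 3604500 to 3604786, with a fold of 4.53. Their local background was 1.00 to 4.33 times the genome-wide one, with a median of 1.81. Over all 6 h peaks the medians were 4.10 for fold, 2.42 for −log10 q and 1.44 times for local background. Low folds and −log10 q were thus not particular to the 12. The density of 6 h peaks was 2.40 per Mb in the window and 0.827 per Mb in the next 8.46 Mb of the short arm, up to 2 Mb from the centromere gap. The opposite end of the chromosome, 18q, had 0 at 6 h and 1 in the control. Without 18p, 2.32% of the 6 h list lay near ends in place of 3.28%.

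**Figure D4:**
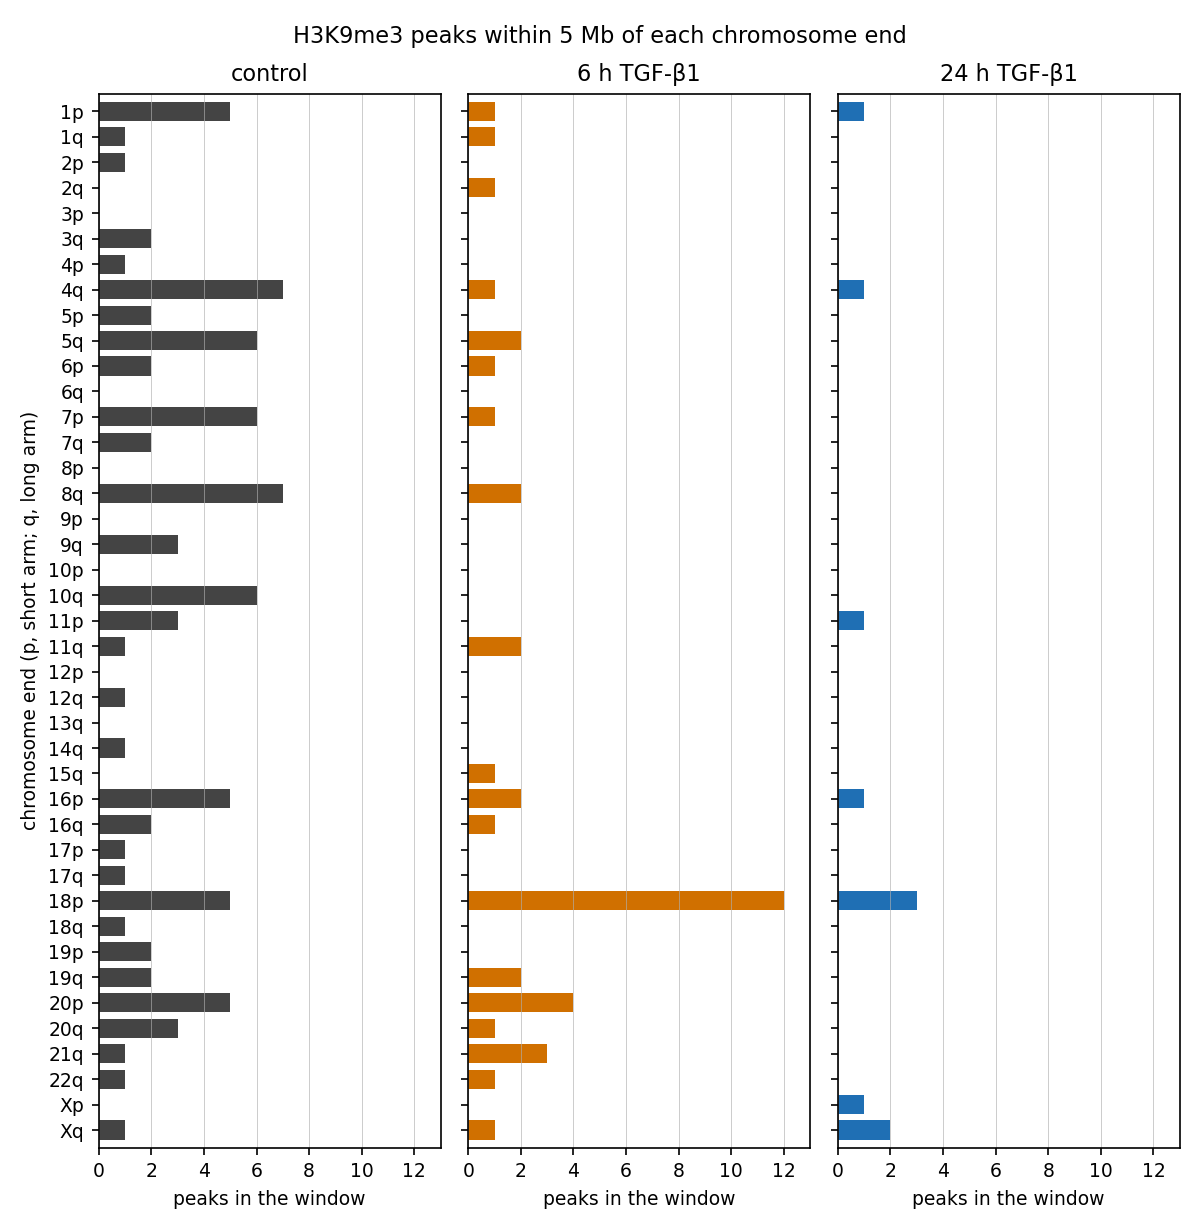
Number of peaks within 5 Mb of each of the 41 chromosome ends (rows) in each list (panels). The 12 peaks of 18p at 6 h are the highest count of any end and list, and the control peaks are spread over 31 ends.

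The ends of 4q and 10q held dense stretches of control peaks, though their counts of 7 and 6 were matched by 7 on 8q and 6 each on 5q and 7p. On 10q, 6 control peaks lay within 22.8 kb, from 135478258 to 135501068, at 29.1 to 51.6 kb from the end, and neither treated list had a peak there. The peak from 135490990 to 135491568 had the highest −log10 q of them, 19.2, with a fold of 4.09 and a local background of 9.18 times the genome-wide one. The outermost, from 135500708 to 135501068, had a fold of 2.16 and a local background of 30.6 times. The remaining 4 had folds of 4.01, 3.11, 4.33 and 5.05, with −log10 q from 4.26 to 9.55. Of the 6, 3 had a −log10 q of at least 5. Over the whole control list, only 5.02% of peaks overlapped a 6 h peak and 9.82% a 24 h peak.

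On 4q, 7 control peaks lay between 190845762 and 191003823, at 146 to 304 kb from the end. Their folds were 2.57, 4.04, 3.56, 4.73, 3.80, 4.71 and 3.54 in order toward the end. The highest −log10 q, 11.9, belonged to the peak from 190992314 to 190992531, followed by 7.41 for that from 190898216 to 190898456. The 24 h list had 1 peak, from 190817965 to 190818158 (fold 4.64, −log10 q 4.32), at 27.6 kb from the nearest control peak. The 6 h list had 1, from 190514046 to 190514416 (fold 4.10, −log10 q 1.896), farther in. No peak was assigned to the D4Z4 arrays, and reads from one of these near-identical ends could have been placed at the other.

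**Figure D5:**
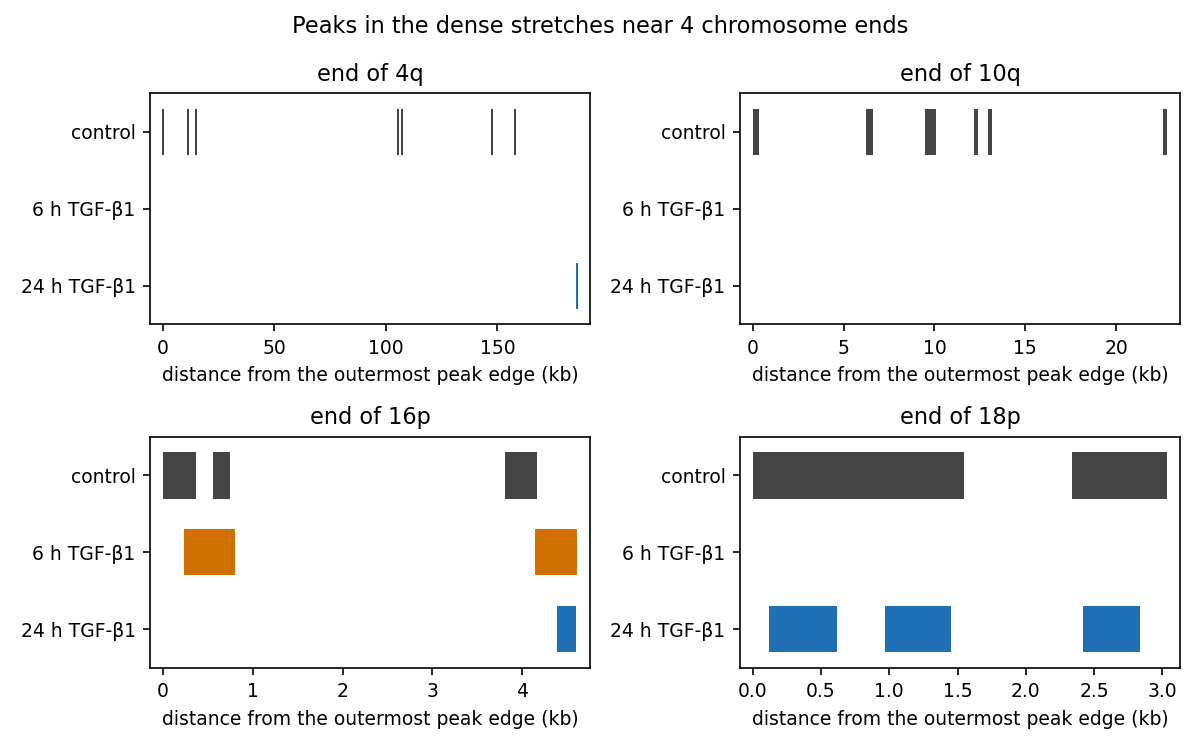
Peaks (bars) of the 3 lists in the dense stretches of 4q, 10q, 16p and 18p, by distance in kb from the outermost edge of the stretch. The bars of 4q are drawn wider than the peaks. The stretches of 4q and 10q hold 7 and 6 control peaks and none at 6 h, and that of 4q also holds 1 at 24 h. That of 16p is held by all lists, and that of 18p by the control and 24 h lists.

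Of the other shared regions, that on 20p had sharp common edges. The control peak ran from 1433217 to 1433706 and the 6 h peak from 1433213 to 1433706, so that the ends were identical and the starts 4 bp apart. Their folds were 3.39 and 4.85 and their −log10 q 3.11 and 5.45. The pileups were 22 and 21 fragments, with local backgrounds of 3.06 times the genome-wide level (control) and 2.05 times (6 h). In all, 20p held 5 control peaks and 4 at 6 h, and the others did not overlap. Over all peaks such overlap was rare, at 5.02% (control in 6 h) and 5.25% (6 h in control).

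On Xq, a control peak from 153774882 to 153775400 (fold 5.14, −log10 q 5.65) and a 24 h peak from 153774882 to 153775203 (fold 6.88, −log10 q 13.04) shared the same first base. A further 24 h peak followed from 153775455 to 153775689 (fold 4.35, −log10 q 4.61), 55 bp beyond the control peak. Their local backgrounds were low, at 1.43 times the genome-wide level for the control peak and 1.26 and 1.52 times for those at 24 h. The peak with a fold of 6.88 had the highest fold of the 24 h list near ends and the fourth highest of that whole list. The local backgrounds of the 20p and Xq regions were thus far below those of the shared regions of 16p and 18p.

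The peaks with the highest folds in the control were scattered over ends and were not shared. Of all control peaks, only 5.02% overlapped a 6 h peak and 9.82% a 24 h peak. The highest fold near an end was on 11q, from 134709395 to 134709627. This peak had a fold of 6.58, 18 fragments at the summit and the lowest local background of the list. Then came 1p from 386130 to 386474 (fold 6.45), 7q from 158708001 to 158708250 (6.07), and with a fold of 5.54 each 3q from 195551494 to 195551759 and 6p from 371992 to 372266. A fold of 5.47 was reached on 17p from 1214457 to 1214707 and on 5q from 176873427 to 176873887. The local background was at most 1.83 times the genome-wide one in these 7 peaks. Equal folds on different chromosomes come from equal small counts, here 15 fragments over nearly the same background.

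At 6 h, after the 16p pair, the highest folds were 5.14 on 5q from 177310910 to 177311126, 4.85 at the 20p region, 4.81 on 7p from 2395610 to 2396135, and 4.77 on 22q from 50683012 to 50683368 and on Xq from 154699392 to 154699648. At 24 h, after Xq, they were 4.64 on 4q, 4.40 on Xp from 938460 to 938850, 3.72 on 1p from 569302 to 569507 and 3.32 on 11p from 180523 to 180723. The 1p peak had the highest −log10 q of the 24 h peaks near ends, 130, over a local background of 52.8 times the genome-wide one. The tip of 1p carries a nuclear copy of mitochondrial DNA, and the part of such reads in this peak was not tested.

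Nearest to the chromosome ends were, in the control, the 10q peaks at 29.1 and 35.4 kb and one on 21q at 36.7 kb, from 48093161 to 48093399 (fold 5.19). At 6 h they were on 15q at 74.8 kb, from 102455093 to 102455305 (fold 3.39), on 19q at 143 kb, from 58986717 to 58987084 (fold 4.37), and the first peak of 16p. At 24 h they were the 3 peaks of 18p at 108 to 111 kb. In the control 8 peaks lay within 100 kb of an end, at 3 ends, against 1 at 6 h and 0 at 24 h.

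Counted by end, 31 of the 41 had a control peak, 19 a 6 h peak and 7 a 24 h peak. In 5 ends all lists had one, in 13 the control alone, in 2 the 6 h list alone and in 1 the 24 h list alone, and 7 ends had none. The 6 ends with the most peaks were 18p with 20, 4q, 8q and 20p with 9 each, and 5q and 16p with 8 each. On 8q the 7 control peaks had folds from 3.40 to 4.40 and −log10 q from 2.45 to 5.00, and the 2 peaks at 6 h had folds of 3.76 and 3.20. On 5q, 3 of the 6 control peaks and 1 of the 2 at 6 h stood within 38.3 kb, from 177272864 to 177311126.

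Ends known for groups of KRAB zinc-finger genes (1q, 4p, 5q, 8q, 12q, 16p, 19p and 19q) made up 8 of 41 ends, or 19.5%. They held 25 of the 87 control peaks (28.7%, 19.5 to 39.4), 9 of the 40 at 6 h (22.5%, 10.8 to 38.5) and 1 of the 10 at 24 h (10%, 0.253 to 44.5). In the control all 8 had a peak, as did 23 of the other 33 ends, with a median of 2 peaks per end against 1. At 6 h and 24 h their share of the windows, 19.5%, lay inside the interval, and in the control it lay just below the lower bound of 19.54%. In the control the share was 18.97% when only the outermost 2 Mb counted. The end of 19q, which holds the densest group of these genes, had 2 peaks in the control (folds 4.39 and 4.10) and 2 at 6 h (4.37 and 3.76). None of them overlapped, but over all peaks only 5.02% (control in 6 h) and 5.25% (6 h in control) did, so this does not set 19q apart.

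Ends with GC-rich telomeric bands (1p, 4p, 8q, 9q, 11p, 16p, 17q, 19p, 20q, 21q and 22q) made up 26.8% of the ends. They held 32 control peaks (36.8%, 26.7 to 47.8), 10 at 6 h (25%, 12.7 to 41.2) and 3 at 24 h (30%, 6.67 to 65.2). All 11 had a control peak, against 20 of the other 30 ends, and 6 had one at 6 h. Both kinds of end share 4p, 8q, 16p and 19p, which held 15 of the control peaks. By arm, the 18 short-arm windows held 38 control peaks, 21 at 6 h and 7 at 24 h, and the 23 long-arm windows held 49, 19 and 3.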

How the data were processed

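The 3 peak lists, 1 per ChIP library, were used; the 3 input libraries have no list of their own. Per the submitters' processing notes, the authors called peaks with MACS2 2.1.1.20160309 on hg19, and FastQC 0.11.9, BWA and Trimmomatic were also used. The threshold, and whether the input was given to the caller, are not given in those sources. The local background may thus come from the input or from the ChIP library, and this was not tested. Peaks were called per library, not pooled. The deposited lists give, per peak, a fold (a linear ratio), −log10 p, −log10 q, the summit offset and a score that repeats −log10 q. The names of the peaks mention a filter on the alignments in both treated lists but not in the control list, so processing may have differed. No list gives a read total, so the depth is unknown.

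Summit pileup and local background were solved from each peak's fold and its −log10 p with the Poisson formula of MACS2. The pileup came out whole, within 0.01, in 86 of 87, 40 of 40 and 8 of 10 peaks near ends (control, 6 h, 24 h). The lowest background of each list was 1.89, 1.73 and 2.66 fragments. The solver, the windows and the overlap count were tested on simulated data. Overlap meant at least 1 bp in common, and intervals of medians are exact, from order statistics. Gap positions came from general knowledge of hg19. The gene and promoter tables at hand are on GRCh38, so peaks are named by position (1-based) and no sequence is shown. Python 3.11.15 with scipy 1.17.1 was used.

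The members, the lists of ends and the alternatives were chosen with earlier results of these data known. Peaks named are the 6 with the highest fold and the 6 with the highest −log10 q of each list, the 3 nearest to an end, those beside the 5 Mb border, all shared regions, chains of at least 4 peaks and the 6 ends with the most peaks. Other named peaks were picked after their values were seen. Alternatives changed the window, the threshold, the overlap, the position of a peak, the distance to gaps and the chromosomes used.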

Additional observations from a re-analysis of the deposited data

How the results depend on the processing

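No paired analysis was possible because there was 1 library for each condition. Of 159 alternatives, 115 left the value within its interval (or the count within 1.5 times) and 44 moved it; the cause was not tested beyond what the settings themselves do. Values are in the order control, 6 h, 24 h unless named. The share of a list near ends became 4.35% and 1.56% with windows of 2 Mb and 10.9% and 6.97% with 10 Mb (control, 6 h). It became 4.72% and 4.63% at a −log10 q of at least 5, and 8.70% in the control for folds at or above the median. With lists of equal size it was 1.84%, 2.94% and 3.68%, so that the control was lowest in place of highest. Among peaks away from gaps the same cut gave 9.62%, 3.38% and 8.55%. The control was still highest, with overlapping intervals and a share that rested on 5 peaks. Without 18p the share of the 6 h list near ends was 2.32%. Away from gaps the share became 7.07% and 1.65% (2 Mb), 16.2% and 7.29% (10 Mb), and 4.88% and 0.868% (1 Mb, chosen after seeing the data). It became 16.6%, 6.41% and 21.4% at a −log10 q of at least 5, and 2.46% at 6 h without 18p. The control share exceeded that at 6 h under each of these settings away from gaps. Their intervals overlapped with lists of equal size and at a −log10 q of at least 5 (11.1 to 23.3 and 2.11 to 14.3 for the latter).

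The share of control peaks near ends within 1 Mb became 34.4% without chains and 69.2% at a −log10 q of at least 5, both added after seeing the data. At that −log10 q the overlaps became 11.5% (control in 6 h, and control in 24 h), 40% (6 h in control) and 20% (6 h in 24 h). For folds at or above the median they were 0% for control in 6 h, 6 h in control, 6 h in 24 h and 24 h in 6 h. With equal size, control in 6 h and control in 24 h were 40%, of 5 control peaks. Regions in more than 1 list numbered 1 for folds at or above the median and 10 with 10 Mb. At a −log10 q of at least 5, medians in the control and at 6 h were 4.72 and 5.14 for fold, 7.57 and 5.99 for −log10 q, 270.5 and 471 bp for width, and 2.495 and 2.75 times for local background, which was 1.43 times at 6 h with 10 Mb. Ends with zinc-finger genes held 18.97% of control peaks within 2 Mb and 60% of the 5 peaks at 6 h with a −log10 q of at least 5. Counts of 10 at 24 h and of 5 at high −log10 q at 6 h limit what these lists can show.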
